A study of Mus musculus with 12 samples.

Results

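The comparison concerned splenic type 1 and type 2 conventional dendritic cells of wild-type mice at steady state, WT cDC1 against WT cDC2. Conventional dendritic cells take up antigen and present it to T cells. The members were the 4 arrays titled WT cDC1 (2 arrays) and WT cDC2 (2 arrays), chosen by title from 12 arrays. The other 8 arrays held the same 2 cell types, described as mature, from Flt3 KO and Flt3L KO mice (2 arrays for each cell type and genotype), which lack the cytokine receptor Flt3 or its ligand. Spleens were digested with collagenase B and DNAse 1 before the cells were isolated, and total RNA was hybridised to GeneChip gene arrays after biotin labelling. The surface markers of the sort, the strain, age and sex of the mice, and whether an array pooled several mice are not given in the sources used here. Replicates were labelled biological, but the p-values below measure only the spread between arrays, and a lower RNA level per cell cannot be told apart from a smaller share of expressing cells within a sorted population.

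cDC1 and cDC2 arise from a common dendritic cell precursor under opposing transcription factors, with Irf8, Batf3 and Id2 on the cDC1 side and Irf4, Klf4 and, in spleen, Notch2 signalling on the cDC2 side. cDC1 are known for taking up dead cells and presenting their antigens on MHC class I to CD8 T cells. cDC2 are known for presenting antigen on MHC class II to CD4 T cells and for a wide range of receptors for microbes.

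Values are array intensities on a linear scale, 1 per gene and array, and a pair of values gives replicate 1 and then replicate 2. Differences are log2 WT cDC1 minus log2 WT cDC2, so a positive one means higher in WT cDC1, and a fold change is taken from that log2 difference. A gene was called where limma's moderated test, adjusted by Benjamini-Hochberg over 14953 tested genes, gave an adjusted p under 0.05. Intensities compare a gene between arrays and not one gene with another, since each probe set has its own response.

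One array, WT cDC1 replicate 1, differed from the rest. The lower quartile of its intensities lay at 25.73, where that of any other array lay between 23.31 and 24.31. The SD of the log2 difference between replicates was 0.21 for WT cDC1 and 0.131 for WT cDC2. For each gene list the number of calls that held without this array is given. Between WT cDC1 and WT cDC2, 5896 genes (39.4% of those tested) were called, 3145 higher in WT cDC1 (21%) and 2751 lower (18.4%). The calls over 2-fold numbered 969 (6.48%), 402 of them higher and 567 lower in WT cDC1. Without WT cDC1 replicate 1, 4659 of the 5896 calls and 968 of the 969 calls over 2-fold remained. The median log2 difference of all tested genes was 0.07, and list medians below are to be read beside it. The list counts of higher and lower calls are likewise to be read beside the 21% and 18.4% of all tested genes. Of the calls, 14 were more than 16-fold higher and 13 more than 16-fold lower in WT cDC1.

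**Figure D1:**
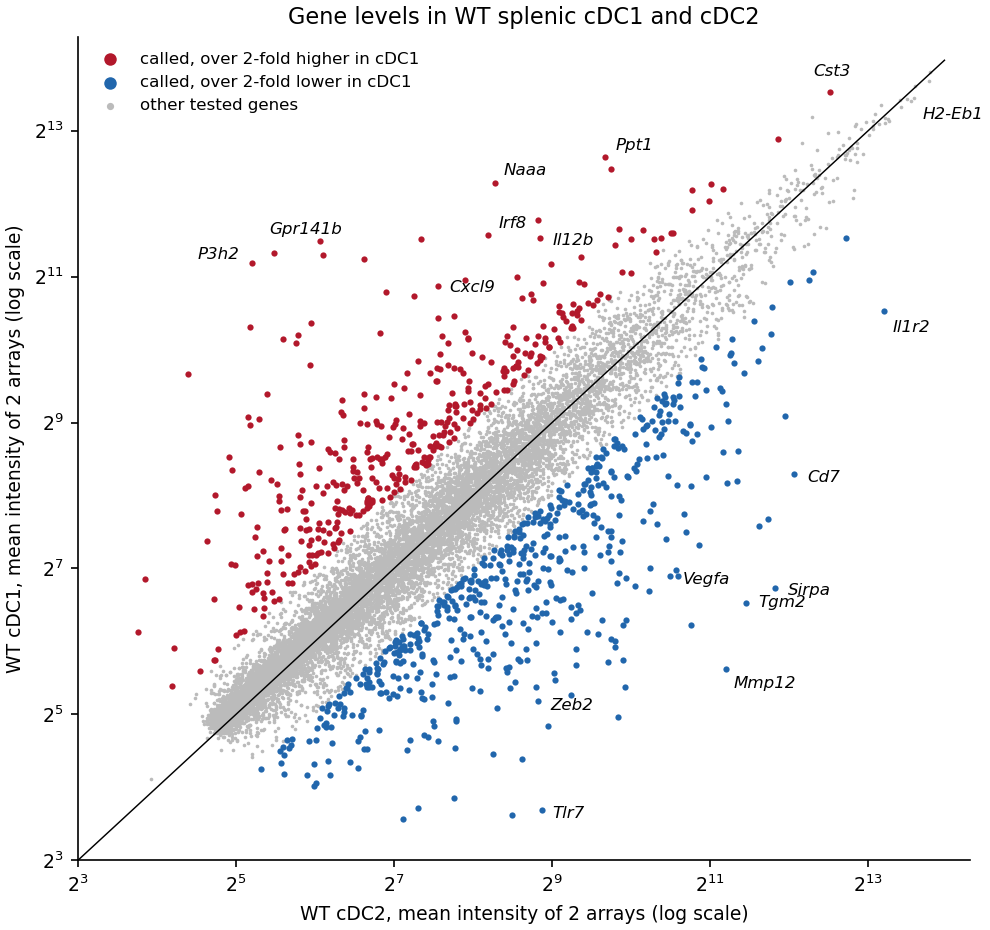
Mean intensity of each tested gene over the 2 WT cDC1 arrays (vertical axis) and the 2 WT cDC2 arrays (horizontal axis), both on log scales, with the line of equal level. The 402 genes called over 2-fold higher in WT cDC1 (red) and the 567 called over 2-fold lower (blue) lie on opposite sides of it, and the MHC class II gene H2-Eb1 lies near the line at high intensity.

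Both populations carried the markers of their label. Xcr1, the receptor for the chemokine Xcl1 and a defining marker of cDC1, measured 2799 and 2956 in WT cDC1, against 73.7 and 59.6 in WT cDC2. Cadm1, an adhesion molecule that marks cDC1 in several species, measured 1903 and 1653 in WT cDC1, against 119 and 120 in WT cDC2. Sirpa, a signal regulatory protein commonly used to define cDC2, measured 109 and 103 in WT cDC1, against 3585 and 3674 in WT cDC2. Of 30 tested genes listed as cDC1 identity genes 29 were higher in WT cDC1, with a median log2 difference of 3.58, and all of these calls held without WT cDC1 replicate 1. Like the other lists, this one was chosen with earlier results of these data known, and it holds several of the largest differences here. Its count therefore describes the list and is no test of the label. The member that was not called was Nfil3, a transcription factor required for cDC1 development, at 1531 and 1628 in WT cDC1 and 1672 and 1618 in WT cDC2 (adjusted p = 0.552).

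In the list of cDC2 identity genes some ran the other way. Of its 30 tested genes 25 were lower in WT cDC1, 3 were higher and 2 were not called, with a median log2 difference of -2.33, and all of these calls held without WT cDC1 replicate 1. The 3 that ran the other way were Clec12a, an inhibitory lectin, at 1077 and 1247 in WT cDC1 against 369 and 321 in WT cDC2, together with Cd1d1, which presents lipids to NKT cells, at 292 and 285 in WT cDC1 against 92.1 and 92.4 in WT cDC2, and Lyz2, lysozyme, at 1211 and 1288 in WT cDC1 against 716 and 735 in WT cDC2. Notch2 was not called, at 1386 and 1485 in WT cDC1 and 1464 and 1514 in WT cDC2 (adjusted p = 0.6), and neither was Ccr2, which was called higher without WT cDC1 replicate 1. Genes of known use in splenic cDC2 subsets were lower in WT cDC1. Cd4 was 7.66-fold lower, at 82.2 and 75.8 in WT cDC1 against 618 and 591 in WT cDC2. Tbx21, the transcription factor T-bet, was 5.83-fold lower, at 71.8 and 96.1 in WT cDC1 against 464 and 505 in WT cDC2.

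Genes outside the usual marker sets were among the largest differences. Pdia5, a protein disulfide isomerase of the endoplasmic reticulum, measured 1289 and 1354 in WT cDC1 and 62.4 and 60.8 in WT cDC2, a log2 difference of 4.42 ± 0.14 (SE, adjusted p = 6.97e-11). Mab21l3 measured 638 and 710 in WT cDC1 and 41.8 and 42.2 in WT cDC2, 16-fold higher. Met, the receptor for hepatocyte growth factor, measured 334 and 401 in WT cDC1 and 29.6 and 30.7 in WT cDC2, 12.2-fold higher. These 3 genes come from the largest differences, taken only where arrays of the 2 cell types did not overlap.

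On the other side, S100a4, a calcium-binding protein of motile cells, measured 203 and 204 in WT cDC1 and 3437 and 3390 in WT cDC2, a log2 difference of -4.07 ± 0.10 (SE, adjusted p = 1.16e-11). St8sia6, a sialyltransferase, was 17.9-fold lower, at 47.4 and 59.7 in WT cDC1 against 932 and 977 in WT cDC2. Cd7, an immunoglobulin superfamily receptor best known on T and NK cells, measured 278 and 350 in WT cDC1 against 4296 and 4290 in WT cDC2. Rgl1, a Ral guanine nucleotide exchange factor relative, was 14.8-fold lower, and Pxdc1 15.8-fold lower, in WT cDC1.

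Ppt1, a lysosomal thioesterase, measured 6312 and 6490 in WT cDC1 and 797 and 829 in WT cDC2, a log2 difference of 2.98 ± 0.07 (SE, adjusted p = 9.46e-12). Naaa, the lysosomal enzyme that breaks down N-acylethanolamines, measured 4754 and 5218 in WT cDC1 and 324 and 296 in WT cDC2. Mpeg1, which encodes a pore-forming perforin relative, measured 5419 and 5964 in WT cDC1 and 752 and 970 in WT cDC2. These genes come from the brightest calls, also taken only where arrays of the 2 cell types did not overlap. Cst3, a secreted cathepsin inhibitor abundant in dendritic cells, was 2.01-fold higher, at 11403 and 12171 in WT cDC1 against 5928 and 5816 in WT cDC2. On the WT cDC2 side, Fth1, ferritin heavy chain, was 2.3-fold lower in WT cDC1, at 2812 and 3096 against 6659 and 6888 in WT cDC2.

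The promoters of 4 genes with large differences are shown, chosen after the matches were seen, because each holds paired core bases of the kind that interferon regulatory factors bind, alone or with a PU.1-like partner. The sequences are the 250 bases before the annotated start site in RefSeq (build GRCm38.p6), 5′ to 3′ on the strand of the gene. Capitals mark matches on either strand to an interferon-stimulated response element core (GAAANNGAAA), an ETS-IRF composite element (GGAANNGAAA), an AP-1 site (TGANTCA) or an ETS site (AGGAAGT). No stretch can match the first 2 motifs in the same frame. Gpr141b lies on chr13:19732952-19733201 (minus strand), Ifi205 on chr1:174031756-174032005 (minus strand), Cd8a on chr6:71373177-71373426 (plus strand) and Cybb on chrX:9469325-9469574 (minus strand), as windows before the start site.
Gpr141b: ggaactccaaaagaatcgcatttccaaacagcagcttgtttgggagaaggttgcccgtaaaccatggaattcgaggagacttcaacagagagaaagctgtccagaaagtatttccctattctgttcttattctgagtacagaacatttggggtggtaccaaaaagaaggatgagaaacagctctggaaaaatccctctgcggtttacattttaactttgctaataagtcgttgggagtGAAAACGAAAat
Ifi205: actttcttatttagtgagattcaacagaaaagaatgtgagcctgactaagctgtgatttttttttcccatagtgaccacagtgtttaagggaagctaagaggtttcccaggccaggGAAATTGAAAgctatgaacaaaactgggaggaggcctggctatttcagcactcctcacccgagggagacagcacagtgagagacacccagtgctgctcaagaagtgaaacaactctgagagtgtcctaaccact
Cd8a: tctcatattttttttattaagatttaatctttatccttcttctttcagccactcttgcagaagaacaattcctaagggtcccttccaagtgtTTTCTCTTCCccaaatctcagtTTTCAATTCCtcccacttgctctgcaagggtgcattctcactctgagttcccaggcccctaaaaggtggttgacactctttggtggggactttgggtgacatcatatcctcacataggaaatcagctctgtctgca
Cybb: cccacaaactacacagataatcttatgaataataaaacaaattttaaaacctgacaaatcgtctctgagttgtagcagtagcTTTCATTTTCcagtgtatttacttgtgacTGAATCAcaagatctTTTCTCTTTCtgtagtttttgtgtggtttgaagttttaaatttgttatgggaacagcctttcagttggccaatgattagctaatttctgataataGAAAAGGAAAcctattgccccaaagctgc

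Gpr141b, an orphan G protein-coupled receptor gene, holds a response element core at position -12, counted from 0 at the start site. Its level was 2447 and 2672 in WT cDC1, against 41.6 and 47.5 in WT cDC2. Ifi205, an interferon-inducible gene of the Ifi200 family, holds the core at position -134, and measured 2300 and 2728 in WT cDC1 against 69.7 and 67.7 in WT cDC2. Cd8a, the CD8 alpha chain, holds 2 composite elements, at positions -158 and -136, and measured 868 and 896 in WT cDC1 against 64.4 and 58.4 in WT cDC2. The fourth promoter belongs to a gene that was lower in WT cDC1. Cybb, the catalytic subunit of the phagocyte NADPH oxidase, holds 3 response element cores, at positions -168, -124 and -29, and an AP-1 match at -139, and measured 58.8 and 90.6 in WT cDC1 against 1666 and 1787 in WT cDC2. Such matches were thus present in genes of either direction.

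Over the 20 genes with the largest positive difference, 15 had a window in the RefSeq promoter table, with 18 windows of 300 bases in all, and over the 20 with the largest negative difference 14 had one, with 16 windows. The response element core was in 2 of the 18 windows of the first set (11.1%) and 1 of the 16 of the second (6.25%). Of all 32851 windows searched, which left out chromosome 18, 3.44% held it. The composite element was in 5.56% of the first and 12.5% of the second, against 2.72% of all windows. The AP-1 motif was in 22.2% of the first and 18.8% of the second, against 7.81% of all. Its windows in the first set came from 3 of the 15 genes, P2ry14 holding more than 1. The ETS motif was in 0 of the 18 windows of the first and 25% of the second, against 9.35% of all. The RBPJ motif GTGGGAA, at which Notch signals end, was in 11.1% of the first and 6.25% of the second, against 6.38% of all. The E2 box CACCTG, bound by Zeb2 and E proteins, was in 16.7% of the first and 12.5% of the second, against 20.2% of all. These counts are small, no test was made, and a match is a description of letters in a window.

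Of 66 tested transcription factors of myeloid and dendritic cell lineages 9 were higher in WT cDC1, 35 lower and 22 not called, with a median log2 difference of -0.35, and 41 of these calls held without WT cDC1 replicate 1. Irf8, which drives cDC1 development, measured 3009 and 3090 in WT cDC1 and 311 and 275 in WT cDC2, a log2 difference of 3.38 ± 0.08 (SE, adjusted p = 9.47e-12). Id2, an inhibitor of E proteins, was 2.59-fold higher, at 1410 and 1498 in WT cDC1 against 564 and 559 in WT cDC2. The higher calls that remain were smaller. Mycl, a Myc relative of dendritic cells, was 2.58-fold higher, while Batf3, Tcf12, Irf1, Rbpj, Id1 and Ahr were 1.24-fold to 1.57-fold higher, and Id1 lost its call without WT cDC1 replicate 1.

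The lower calls included factors with differences of a size close to that of Irf8. Irf4 measured 114 and 101 in WT cDC1 and 1057 and 1064 in WT cDC2, a log2 difference of -3.31 ± 0.12 (SE, adjusted p = 2.97e-10). Zeb2, a repressor that opposes Id2 during cDC1 commitment, measured 32.3 and 40.1 in WT cDC1 and 459 and 448 in WT cDC2, a log2 difference of -3.65 ± 0.14 (SE, adjusted p = 5.01e-10). Prdm1, the repressor Blimp-1, was 6.96-fold lower, at 51.4 and 49.5 in WT cDC1 against 363 and 339 in WT cDC2. In each of these genes the highest WT cDC1 array lay far below the lowest WT cDC2 array. Stat4, which carries the interleukin-12 signal, was 7.59-fold lower, at 219 and 212 in WT cDC1 against 1602 and 1665 in WT cDC2. Bhlhe40 was 4.63-fold lower, at 459 and 582 in WT cDC1 against 2425 and 2368 in WT cDC2. Relb, Rela, Rel and Nfkb2, subunits of NF-kB, were 1.35-fold to 2.01-fold lower in WT cDC1, as were Stat3, Stat5b and Stat6 by 1.35-fold to 1.64-fold. Tcf4, the E protein that drives plasmacytoid dendritic cells, was 2.11-fold lower and Klf4 2.2-fold lower.

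Factors shared by dendritic cells were not called. Spi1, which encodes PU.1, measured 2577 and 2612 in WT cDC1 and 2903 and 2769 in WT cDC2 (adjusted p = 0.167). Zbtb46, which marks the conventional lineage, measured 289 and 228 in WT cDC1 and 314 and 258 in WT cDC2 (adjusted p = 0.358). Irf5 and Irf7, which act below Toll-like receptors, had log2 differences of 0.07 and 0.01. The arrays of the 2 cell types overlapped for Zbtb46 but not for Spi1, so with 2 arrays a group a missing call does not show that levels were alike.

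**Figure D2:**
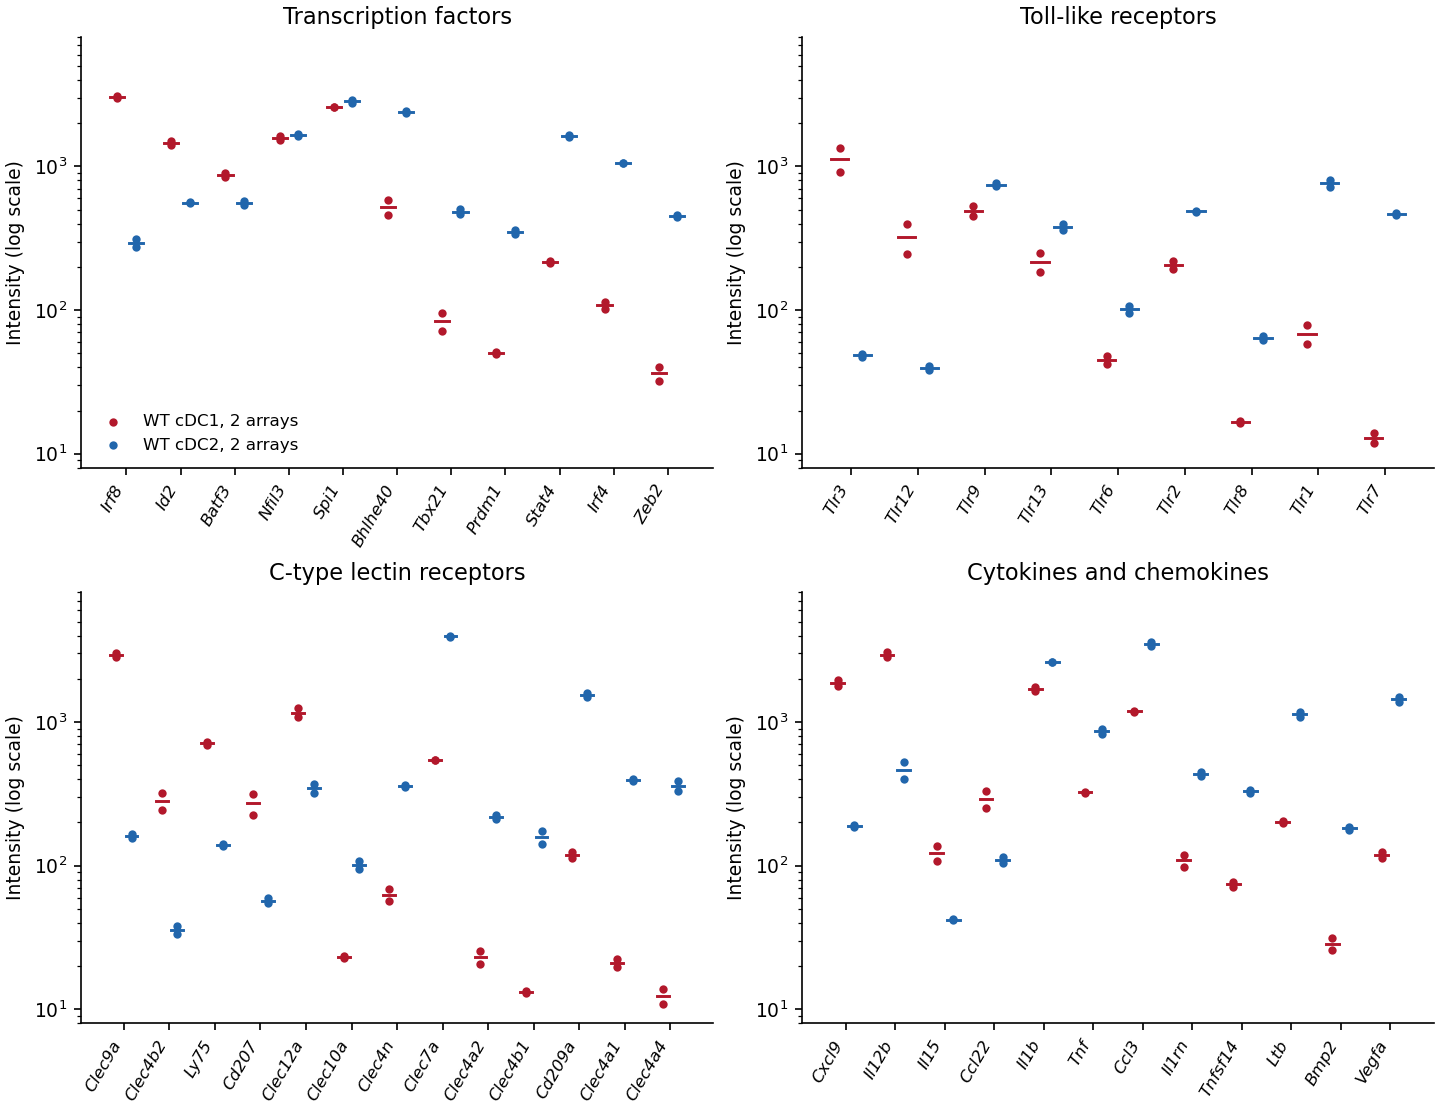
Intensity on each array (points) and the group mean (line) for named transcription factors, Toll-like receptors, C-type lectin receptors, and cytokines and chemokines, with WT cDC1 (red) left of WT cDC2 (blue) for each gene on a log scale. The arrays of the 2 cell types do not overlap for any gene shown except Nfil3, and Irf8 and Irf4 are placed in opposite order.

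Receptors that detect microbes divided between the cell types. Of 21 tested Toll-like receptors and adaptors 4 were higher in WT cDC1, 12 lower and 5 not called, with a median log2 difference of -0.29, and 14 of these calls held without WT cDC1 replicate 1. Tlr3, which binds double-stranded RNA in endosomes, measured 921 and 1337 in WT cDC1 and 49.5 and 47.5 in WT cDC2, a log2 difference of 4.52 ± 0.14 (SE, adjusted p = 6.34e-11). Tlr12, which with Tlr11 recognises protozoan profilin in mice, was 7.93-fold higher, at 245 and 397 in WT cDC1 against 38 and 40.6 in WT cDC2. In both genes WT cDC1 replicate 1 was the lower of its pair, and without it the log2 differences were 4.79 for Tlr3 and 3.34 for Tlr12.

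The receptors of single-stranded RNA ran the other way. Tlr7 measured 14 and 11.8 in WT cDC1, under the lower quartile of every array, and 471 and 462 in WT cDC2. Its neighbour on the X chromosome, Tlr8, was 3.87-fold lower, at 17 and 16.3 in WT cDC1, also under that quartile, against 62.4 and 66.4 in WT cDC2. Tlr13, which detects bacterial ribosomal RNA, was 1.76-fold lower, at 185 and 248 in WT cDC1 against 359 and 397 in WT cDC2. The receptors for bacterial lipoproteins were also lower. Tlr1 was 11.3-fold lower, at 57.7 and 79.3 in WT cDC1 against 715 and 810 in WT cDC2, while its partner Tlr2 was 2.37-fold lower and Tlr6 2.25-fold lower. Tlr9, the receptor for unmethylated CpG DNA, differed less, at 527 and 455 in WT cDC1 and 763 and 726 in WT cDC2 (1.52-fold lower, adjusted p = 8.39e-05). Among adaptors, Myd88 and Tirap were 1.63-fold and 1.77-fold higher in WT cDC1, Ticam2 was 1.92-fold lower, and Ticam1, the adaptor of Tlr3, was not called (327 and 283 in WT cDC1, 333 and 322 in WT cDC2). Unc93b1, which carries the endosomal receptors to their compartment, was not called either, at 1431 and 1428 in WT cDC1 and 1203 and 1273 in WT cDC2.

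Of 25 tested cytosolic nucleic acid and inflammasome sensors 2 were higher in WT cDC1, 14 lower and 9 not called, with a median log2 difference of -0.49, and all of these calls held without WT cDC1 replicate 1. Ddx58, the RNA helicase RIG-I, was 11.4-fold lower, at 58.8 and 35.5 in WT cDC1 against 553 and 493 in WT cDC2. Nod1 and Nod2, sensors of bacterial peptidoglycan, were 3.97-fold and 2.37-fold lower. Ifih1, the related helicase MDA5, was 1.69-fold lower, at 323 and 328 in WT cDC1 against 582 and 522 in WT cDC2. Among inflammasome genes calls ran in both directions. Nlrp3 measured 691 and 686 in WT cDC1 and 2147 and 2388 in WT cDC2, and Nlrc4 was 4.28-fold and Casp1 3.27-fold lower in WT cDC1. Pycard, the adaptor ASC, was not called (560 and 665 in WT cDC1, 534 and 558 in WT cDC2), and neither was Gsdmd. The higher calls were Nlrc5, the transactivator of MHC class I genes, and Nlrp1b, by 1.61-fold and 1.36-fold.

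Of 31 tested C-type lectin receptors, which bind glycans of microbes and of damaged cells, 7 were higher in WT cDC1, 19 lower and 5 not called, with a median log2 difference of -1.01, and 25 of these calls held without WT cDC1 replicate 1. Clec9a, which binds actin filaments exposed by dead cells, measured 2832 and 3035 in WT cDC1, against 167 and 156 in WT cDC2. Ly75, the endocytic receptor DEC-205, was 5.07-fold higher, at 730 and 687 in WT cDC1 against 142 and 137 in WT cDC2. Cd207, langerin, was 4.69-fold higher, at 317 and 225 in WT cDC1 against 59.7 and 54.6 in WT cDC2.

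Receptors of fungal glycans were on the WT cDC2 side. Clec7a, the beta-glucan receptor Dectin-1, was 7.23-fold lower in WT cDC1, at 545 and 546 against 3923 and 3968 in WT cDC2. Clec4n, the mannan receptor Dectin-2, was 5.72-fold lower, at 56.9 and 68.9 in WT cDC1 against 352 and 364 in WT cDC2. Clec10a and Mgl2, galactose-type lectins, were 4.38-fold and 3.75-fold lower. The group next to Clec4n on chromosome 6 holds inhibitory and activating receptors named Clec4a and Clec4b. Clec4a1, Clec4a2, Clec4a3, Clec4a4 and Clec4b1 were 4.49-fold to 29.3-fold lower in WT cDC1. For Clec4a1, Clec4a4 and Clec4b1 both WT cDC1 arrays lay under the lower quartile of every array, so the background limits these folds. Clec4b2, a paralog in the same stretch, differed in sign, at 243 and 320 in WT cDC1 against 37.8 and 33.2 in WT cDC2 (log2 difference 2.98 ± 0.20 SE, adjusted p = 6.72e-08). Paralogs this similar can share probe signal, which was not tested.

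Antigen presentation genes separated by class. In the MHC class I pathway 12 of 17 tested genes were higher in WT cDC1, 3 lower and 2 not called, with a median log2 difference of 0.68, and 12 of these calls held without WT cDC1 replicate 1. Tap2, a subunit of the peptide transporter, measured 1237 and 1260 in WT cDC1 and 518 and 521 in WT cDC2, a log2 difference of 1.26 ± 0.07 (SE, adjusted p = 2.43e-08). The other subunit, Tap1, was 1.67-fold higher, at 2481 and 2287 in WT cDC1 against 1449 and 1397 in WT cDC2. Psmb9 and Psmb8, immunoproteasome subunits, were 2.07-fold and 1.92-fold higher, and Psme1 and Psme2, its activator, 1.65-fold and 1.5-fold. The peptide loading genes were higher as well. Tapbp and Tapbpl were 1.42-fold and 2.36-fold higher, and the chaperones Calr, Canx and Pdia3 1.45-fold to 1.64-fold higher. B2m, the class I light chain, was lower by 1.19-fold, at 5160 and 5306 in WT cDC1 against 6093 and 6389 in WT cDC2, but this call, with those of H2-M3 and H2-Q4, was lost without WT cDC1 replicate 1, and also without WT cDC2 replicate 2. The classical heavy chain genes H2-K1 and H2-D1 had no probe set of a single gene and were not analysed here.

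Of 22 tested genes of MHC class II presentation 3 were higher in WT cDC1, 12 lower and 7 not called, with a median log2 difference of -0.31, and 14 of these calls held without WT cDC1 replicate 1. The main class II chains were not called. H2-Ab1 measured 10549 and 11274 in WT cDC1 and 11899 and 11890 in WT cDC2 (adjusted p = 0.19), and H2-Aa, H2-Eb1, the invariant chain Cd74 and the transactivator Ciita had log2 differences of -0.04 to -0.13. Among endocytic proteases most calls were lower. Lgmn, the asparaginyl endopeptidase, was 3.98-fold lower, at 448 and 473 in WT cDC1 against 1768 and 1895 in WT cDC2. Ctsh, Ctsl, Ctsd, Ctsz and Ctss, cathepsins, were 1.41-fold to 1.98-fold lower, and the thiol reductase Ifi30 1.56-fold lower. Ctsb was not called. Ctse ran the other way, 2.34-fold higher, at 141 and 151 in WT cDC1 against 66.7 and 58.1 in WT cDC2. H2-Eb2, a class II beta chain gene of the same complex, differed most in the list, at 316 and 250 in WT cDC1 against 1491 and 1571 in WT cDC2 (log2 difference -2.44 ± 0.11 SE, adjusted p = 1.98e-09).

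Of 24 tested genes of cross-presentation and the phagosome 9 were higher in WT cDC1, 5 lower and 10 not called, with a median log2 difference of 0.10, close to that of all genes, and all of these calls held without WT cDC1 replicate 1. Rab7b, a GTPase of late endosomes, measured 2451 and 2391 in WT cDC1, against 104 and 93.2 in WT cDC2. Rab32, a GTPase of lysosome-related organelles, was 4.65-fold higher, at 742 and 902 in WT cDC1 against 175 and 177 in WT cDC2. Wdfy4, required for cross-presentation of cell-associated antigen in mice, was bright in both and 1.59-fold higher, at 7120 and 7432 in WT cDC1 against 4429 and 4730 in WT cDC2. Rab43, also tied to cross-presentation in mouse cDC1, was 1.56-fold higher and Sec61a1, a translocon subunit, 1.53-fold higher. The oxidase subunits did not move together. Cybb was 23.6-fold lower, as given above, and Cyba and Rac2 were 1.17-fold and 1.65-fold lower, while Ncf1 and Ncf4 were not called (log2 differences 0.04 and -0.02). Sec22b and Snap23, fusion proteins of the phagosome, were not called.

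**Figure D3:**
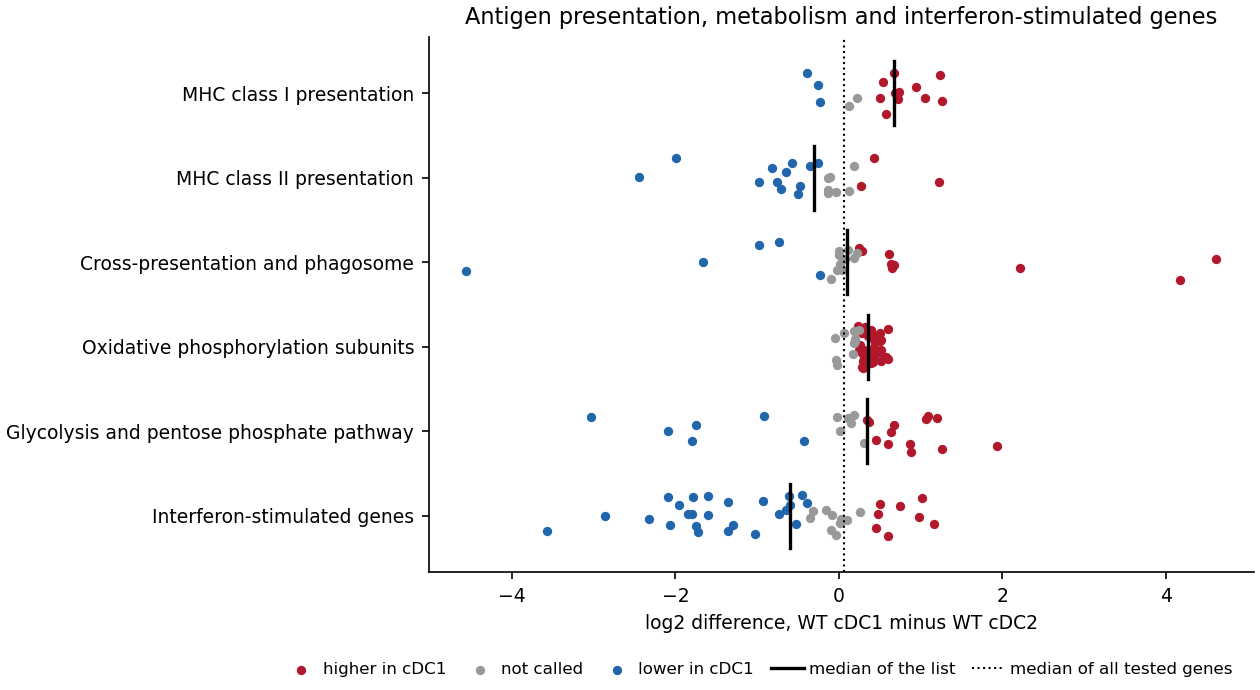
Log2 difference, WT cDC1 minus WT cDC2, of every tested member of 6 lists, with the list median (bar) and the median of all tested genes at 0.07 (dotted line). MHC class I presentation (median 0.68) and oxidative phosphorylation (0.36) lie mostly to the right, MHC class II presentation (-0.31) and interferon-stimulated genes (-0.60) mostly to the left, and glycolysis (0.35) holds 13 higher and 6 lower members.

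Genes of dead cell uptake were called in both directions, beside 21% higher and 18.4% lower over all tested genes. Of 29 tested receptors and bridging molecules 7 were higher in WT cDC1, 10 lower and 12 not called, with a median log2 difference of -0.04, and 15 of these calls held without WT cDC1 replicate 1. Cd36, a scavenger receptor, measured 1063 and 1112 in WT cDC1 and 51.1 and 57.7 in WT cDC2, a log2 difference of 4.32 ± 0.10 (SE, adjusted p = 7.65e-12). Scarb1 and Scarb2, of the same family, were 2.01-fold and 2.07-fold higher. Axl, Havcr2, Timd4, Mertk and Tyro3 recognise phosphatidylserine, directly or through a bridging protein, and of these named genes 1 was called. Axl was 2.5-fold lower, at 73.1 and 53.5 in WT cDC1 against 152 and 161 in WT cDC2, while Havcr2, Timd4, Mertk and Tyro3 were not called. Lrp1, an endocytic receptor, was 5.49-fold lower, at 97.5 and 95.7 in WT cDC1 against 544 and 518 in WT cDC2, and Thbs1, thrombospondin, was 11.9-fold lower, at 130 and 190 in WT cDC1 against 1792 and 1938 in WT cDC2.

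Fc, complement and paired inhibitory receptors were mostly lower. Of 37 tested genes 2 were higher in WT cDC1, 26 lower and 9 not called, with a median log2 difference of -0.84, and 26 of these calls held without WT cDC1 replicate 1. Fcer1g, the signalling chain shared by activating Fc receptors, measured 276 and 311 in WT cDC1 and 2525 and 2661 in WT cDC2, a log2 difference of -3.15 ± 0.09 (SE, adjusted p = 2.58e-11). Tyrobp, the adaptor DAP12, was 1.74-fold lower. The inhibitory Fc receptor was not called, with Fcgr2b at 394 and 394 in WT cDC1 and 409 and 421 in WT cDC2, whereas the activating Fcgr3 was 2.74-fold lower. Sialic acid receptors with inhibitory tails were lower, Siglecg by 8.06-fold (118 and 106 in WT cDC1, 885 and 919 in WT cDC2), Cd33 by 7.84-fold and Cd22 by 5.32-fold. Of the Cd300 family Cd300lf was 13.7-fold and Cd300ld 10.7-fold lower, but Cd300c was 1.52-fold higher. The other higher call was Treml4, which binds dead cells, at 1993 and 2074 in WT cDC1 against 331 and 424 in WT cDC2 (5.43-fold).

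Of 24 tested chemotactic receptors 4 were higher in WT cDC1, 9 lower and 11 not called, beside 21% higher and 18.4% lower over all tested genes, with a median log2 difference of -0.07. Of these calls 12 held without WT cDC1 replicate 1, and the 4 higher became 8 without WT cDC1 replicate 2. Cxcr3, the receptor of interferon-induced chemokines, was 7.82-fold higher, at 597 and 670 in WT cDC1 against 77.5 and 84.3 in WT cDC2. Ccr9, a gut homing receptor, was 4.52-fold higher, at 221 and 231 in WT cDC1 against 55.2 and 45.3 in WT cDC2. Gpr183, the oxysterol receptor that places cDC2 at the bridging channels of the mouse spleen, was 4.07-fold lower, at 452 and 407 in WT cDC1 against 1797 and 1699 in WT cDC2. These receptors thus marked opposite cell types. Cx3cr1, Ccr6 and Ccr1 were 3.59-fold, 3-fold and 2.37-fold lower. Ccr7, which guides mature cells to T cell zones, was 1.44-fold lower, at 2381 and 2407 in WT cDC1 against 3466 and 3415 in WT cDC2, and Cxcr4 was not called. The call of S1pr1 (1.25-fold higher) was lost without WT cDC1 replicate 1.

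Of 19 tested chemokines 9 were higher in WT cDC1, 6 lower and 4 not called, with a median log2 difference of 0.30, and 12 of these calls held without WT cDC1 replicate 1. Cxcl9, a ligand of Cxcr3 that draws T cells, measured 1790 and 1958 in WT cDC1 and 191 and 186 in WT cDC2, a log2 difference of 3.31 ± 0.14 (SE, adjusted p = 1.08e-09). Cxcl10, another ligand of the same receptor, was not called, at 105 and 149 in WT cDC1 and 132 and 98.7 in WT cDC2. Ccl22, which attracts regulatory T cells, was 2.64-fold higher, at 254 and 329 in WT cDC1 against 105 and 114 in WT cDC2. Inflammatory chemokines of the Ccl3 cluster were lower. Ccl3 was 2.95-fold lower, at 1165 and 1202 in WT cDC1 against 3606 and 3381 in WT cDC2, and Ccl9, Ccl6 and Ccl5 were 2.25-fold, 1.61-fold and 1.82-fold lower.

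Of 35 tested cytokines and TNF family ligands 8 were higher in WT cDC1, 16 lower and 11 not called, with a median log2 difference of -0.07, and 20 of these calls held without WT cDC1 replicate 1. The 8 higher became 5 without WT cDC1 replicate 1 or WT cDC2 replicate 2. Il12b, the shared subunit of interleukins 12 and 23, measured 2814 and 3075 in WT cDC1 and 523 and 400 in WT cDC2, a log2 difference of 2.68 ± 0.12 (SE, adjusted p = 1.61e-09). Its partner Il12a was among the dim genes left out of the test (34.4 and 25 in WT cDC1, 24.9 and 24.9 in WT cDC2), and Il23a was not called. Il15 and Il15ra, which present interleukin 15 together, were 2.9-fold and 2.28-fold higher in WT cDC1, Il15 at 108 and 138 against 42.4 and 41.7 in WT cDC2. Most other ligands with large differences were lower. Vegfa, an angiogenic factor, measured 124 and 113 in WT cDC1 and 1486 and 1388 in WT cDC2, a log2 difference of -3.60 ± 0.08 (SE, adjusted p = 6.06e-12). Bmp2 was 6.37-fold lower, at 26 and 31.4 in WT cDC1 against 177 and 186 in WT cDC2. Ltb, lymphotoxin beta, was 5.65-fold lower, at 205 and 197 in WT cDC1 against 1182 and 1084 in WT cDC2. Tnf was 2.65-fold, Tnfsf14 4.45-fold and Il1b 1.55-fold lower, and the interleukin 1 antagonist Il1rn was 4.05-fold lower.

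Of 48 tested cytokine and growth factor receptors 9 were higher in WT cDC1, 21 lower and 18 not called, with a median log2 difference of -0.19, and 28 of these calls held without WT cDC1 replicate 1. Flt3, the receptor deleted in one of the knockouts, was 1.29-fold higher, at 2333 and 2265 in WT cDC1 against 1817 and 1742 in WT cDC2 (adjusted p = 0.00108). Kit, the stem cell factor receptor, was 1.33-fold lower, at 2861 and 2917 in WT cDC1 against 3854 and 3808 in WT cDC2. Csf1r, the receptor for macrophage colony-stimulating factor, was 11.6-fold lower, at 109 and 97.9 in WT cDC1 against 1217 and 1180 in WT cDC2. The receptors for granulocyte-macrophage colony-stimulating factor were close, with Csf2ra 1.25-fold higher and Csf2rb not called. Il1r2, the decoy receptor for interleukin 1, was lower, at 1434 and 1531 in WT cDC1 against 9152 and 9734 in WT cDC2 (log2 difference -2.67 ± 0.08 SE, adjusted p = 6.97e-11). Il1rap, the signalling partner of the interleukin 1 receptor, was 3.15-fold higher, at 180 and 191 in WT cDC1 against 65.4 and 52.7 in WT cDC2. Il21r was 8.27-fold and Il4ra 2.51-fold lower. The interferon receptors Ifnar1, Ifnar2 and Ifngr2 were 1.4-fold to 1.69-fold lower, and Ifngr1 was not called. Acvrl1, a receptor of the TGF-beta family, was 3.96-fold higher, at 876 and 847 in WT cDC1 against 212 and 222 in WT cDC2.

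Of 43 tested interferon-stimulated genes 8 were higher in WT cDC1, 25 lower and 10 not called, with a median log2 difference of -0.60, and 32 of these calls held without WT cDC1 replicate 1. Rtp4 was 11.9-fold lower, at 47.5 and 40.9 in WT cDC1 against 555 and 496 in WT cDC2. Oas2 and Oasl2 were 5-fold and 3.89-fold lower, Ifit1 4.25-fold and Rsad2, viperin, 3.59-fold lower. The antiviral membrane proteins Ifitm1 and Ifitm3 were 3.37-fold and 2.46-fold lower, Ifitm3 at 1933 and 2043 in WT cDC1 against 4821 and 4955 in WT cDC2. A smaller group ran the other way. Mx1 was 2.25-fold higher, at 130 and 162 in WT cDC1 against 60.7 and 68 in WT cDC2. Ly6e was 2.03-fold higher, at 7373 and 7756 in WT cDC1 against 3807 and 3634 in WT cDC2. Irf7 and Ifi35 were not called.

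Of 32 tested costimulatory and coinhibitory molecules 8 were higher in WT cDC1, 13 lower and 11 not called, with a median log2 difference of -0.18, and 19 of these calls held without WT cDC1 replicate 1. Cd274 and Pdcd1lg2, the ligands of the inhibitory receptor PD-1, were 3.03-fold and 3.73-fold lower, Cd274 at 360 and 364 in WT cDC1 against 1065 and 1127 in WT cDC2. Btla, an inhibitory receptor of the CD28 family, was 3.48-fold higher, at 1144 and 1402 in WT cDC1 against 360 and 367 in WT cDC2. Cd80 was 1.57-fold and Icosl 1.77-fold lower, while Cd40 and Cd83 were not called, nor was Cd86, which was called lower without WT cDC1 replicate 1. Of 24 tested genes of maturation and migration 6 were higher in WT cDC1, 11 lower and 7 not called, also with a median log2 difference of -0.18, and 16 of these calls held without it. Fscn1, the actin bundler of mature cells, was not called, at 695 and 674 in WT cDC1 and 736 and 548 in WT cDC2.

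Adhesion molecules were spread over both sides, with 13 of 42 tested genes higher in WT cDC1, 14 lower and 15 not called, and 25 of these calls held without WT cDC1 replicate 1. Itgae, the integrin alpha chain CD103, was 13.4-fold higher, and Itga1 6.74-fold higher, at 150 and 182 in WT cDC1 against 29.1 and 20.6 in WT cDC2. Itgam, the alpha chain CD11b, was 15.9-fold lower, at 49.3 and 56.4 in WT cDC1 against 782 and 892 in WT cDC2. Itgax, the alpha chain CD11c used to define dendritic cells, was 1.74-fold lower, at 3200 and 3282 in WT cDC1 against 5544 and 5759 in WT cDC2. The alpha chains thus differed in both directions, while Itga4 was not called. Cd81, a tetraspanin, was 4.55-fold higher. Emb and Cadm3 were 8.4-fold and 7.04-fold lower.

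Lipid mediator and orphan receptor genes also split, with 16 of 48 tested genes higher in WT cDC1, 19 lower and 13 not called, and 29 of these calls held without WT cDC1 replicate 1. Gpr171, an orphan receptor, was 7.74-fold higher, at 3432 and 3566 in WT cDC1 against 485 and 421 in WT cDC2. P2ry14, the receptor for UDP-sugars, measured 1284 and 1267 in WT cDC1 against 34.2 and 38.3 in WT cDC2. Gpr141, next to Gpr141b on chromosome 13, was 4.66-fold lower, at 54.4 and 59.4 in WT cDC1 against 263 and 266 in WT cDC2. The 2 adjacent paralogs therefore differed in opposite directions. Ptgs2, cyclooxygenase 2, measured 166 and 217 in WT cDC1 and 2931 and 3363 in WT cDC2, a log2 difference of -4.05 ± 0.12 (SE, adjusted p = 3.79e-11). Prostaglandin D synthase Hpgds was 5.37-fold lower and leukotriene A4 hydrolase Lta4h 3.74-fold lower. Of metalloproteases, ADAM proteins and serpins 9 of 26 tested were higher, 8 lower and 9 not called, and 15 of these calls held without WT cDC1 replicate 1. Mmp12, macrophage elastase, measured 50.9 and 47.7 in WT cDC1 against 2551 and 2143 in WT cDC2, the largest lower difference of the list. Adam11 and Mmp9 were 4.92-fold and 2.79-fold lower. The serpins Serpinb8, Serpinb2, Serpinb6b, Serpinb10 and Serpinb9 were 2.11-fold to 13.8-fold higher, and Adam8 and Adam19 2.65-fold and 2.82-fold higher.

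Metabolic genes showed small and uniform differences in one list and large, opposed ones in another. Of 49 tested oxidative phosphorylation subunits 39 were higher in WT cDC1, 0 lower and 10 not called, with a median log2 difference of 0.36. None exceeded 2-fold, and 36 of these calls held without WT cDC1 replicate 1. Cox6a1, a subunit of cytochrome oxidase, was 1.32-fold higher, at 4535 and 4540 in WT cDC1 against 3437 and 3437 in WT cDC2. Ndufb2, of complex I, was 1.51-fold higher.

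Of 25 tested genes of glycolysis and the pentose phosphate pathway 13 were higher in WT cDC1, 6 lower and 6 not called, with a median log2 difference of 0.35, and 18 of these calls held without WT cDC1 replicate 1. Enzymes made up most of the higher calls. Pgk1 was 2.4-fold higher, at 905 and 918 in WT cDC1 against 379 and 380 in WT cDC2, Pgam1 2.13-fold and Pfkp 2.1-fold higher, and Hk3 3.83-fold higher. Transporters made up most of the lower calls. The glucose transporter Slc2a3 measured 168 and 170 in WT cDC1 and 1388 and 1385 in WT cDC2, a log2 difference of -3.03 ± 0.08 (SE, adjusted p = 2.39e-11). Slc2a1 and Slc2a6 were 3.47-fold and 4.27-fold lower and the lactate exporter Slc16a3 3.37-fold lower, while Slc16a1 was 1.84-fold higher.

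In the cell cycle list 4 of 37 tested genes were higher in WT cDC1, 6 lower and 27 not called, a share called of 27% beside 39.4% of all tested genes. Of these calls 7 held without WT cDC1 replicate 1. The 6 lower calls became 3 without WT cDC1 replicate 1 or WT cDC2 replicate 2, and 13 without WT cDC1 replicate 2. Mki67 measured 521 and 650 in WT cDC1 and 576 and 657 in WT cDC2 (adjusted p = 0.662). Ccnd2, a D-type cyclin, had the one difference over 2-fold, 2.41-fold lower, at 323 and 246 in WT cDC1 against 677 and 681 in WT cDC2. In the Notch pathway 9 of 29 tested genes were higher, 7 lower and 13 not called, and 12 of these calls held without WT cDC1 replicate 1. Without WT cDC2 replicate 1 there were 4 higher and 4 lower. Dtx1, a known Notch target, was 4.16-fold lower, at 86.1 and 88.8 in WT cDC1 against 361 and 366 in WT cDC2, Notch4 was 2.86-fold higher, and Hes1 and Hey1 were not called. Of the BCL2 family and cell death genes 8 of 24 tested were higher, 10 lower and 6 not called, and 15 of these calls held without WT cDC1 replicate 1. Bcl2l1, which protects mitochondria from apoptosis, was 2.51-fold higher, at 221 and 226 in WT cDC1 against 86.9 and 90.8 in WT cDC2. Birc2 and Birc3 were 1.91-fold and 1.71-fold lower. Another, dimmer Birc2 probe set had a log2 difference of -0.33, against -0.93 for the one used.

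**Figure D4:**
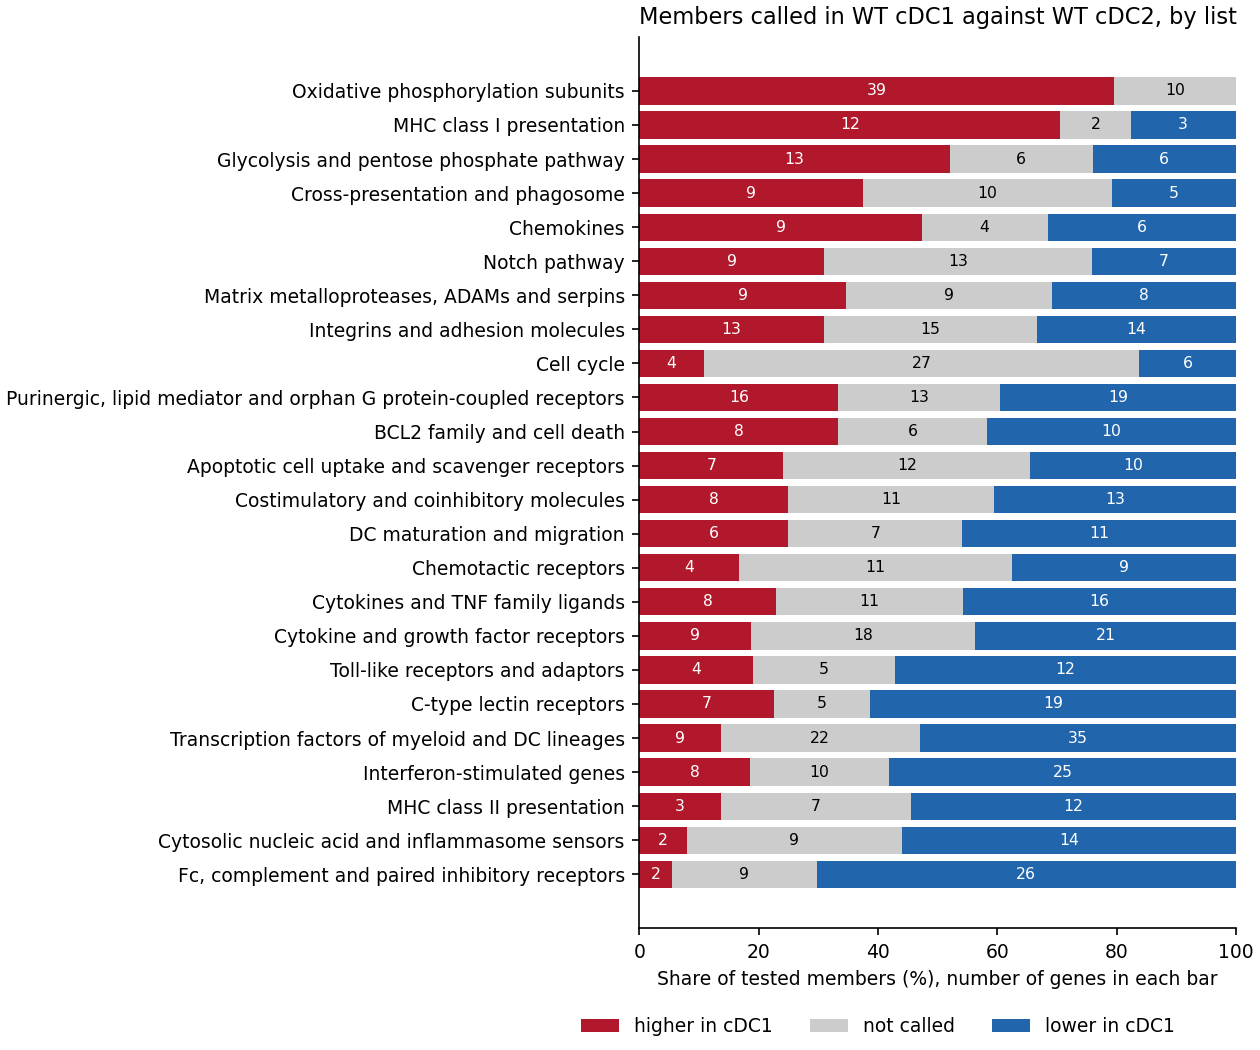
Share of tested members of 24 lists that were higher in WT cDC1 (red), not called (grey) or lower in WT cDC1 (blue), with the number of genes in each bar. Oxidative phosphorylation has 39 higher and 0 lower members, and Fc, complement and paired inhibitory receptors have 2 higher and 26 lower, beside 21% higher and 18.4% lower over all tested genes.

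Markers of other spleen cells were measured beside these results, and their part in them was not tested. Calls below are counted over tested markers, while sums run over all markers with a value, dim untested ones included. The sums take in 12 B cell, 10 NK cell, 14 macrophage, 9 T cell, 10 plasmacytoid, 12 monocyte and 11 neutrophil markers. Of 9 tested B cell markers 2 were higher in WT cDC1 and 5 lower, with summed intensities of 915 and 945 in WT cDC1 and 1484 and 1524 in WT cDC2. Among these markers Cd22 was lower, as given above, and Ms4a1 higher, at 92.1 and 110 in WT cDC1 against 61.2 and 62.8 in WT cDC2. Cd79a stayed at 14.1 to 17.7 on the 4 arrays. Of 4 tested NK cell markers 1 was higher and 2 lower, with sums of 727 and 799 in WT cDC1 and 2095 and 2028 in WT cDC2, a difference carried by Klrd1 (112 and 139 in WT cDC1, 1535 and 1509 in WT cDC2), with Ncr1 at 14 to 19.7. Of 12 tested macrophage markers 2 were higher and 6 lower, with sums of 1035 and 1023 in WT cDC1 and 2036 and 2025 in WT cDC2, of which Adgre1 made up 41.7 and 41.3 in WT cDC1 and 996 and 943 in WT cDC2. Of 6 tested T cell markers 1 was higher, a call lost without WT cDC1 replicate 1 and under most other settings, and 1 lower, with sums of 576 and 549 in WT cDC1 and 603 and 603 in WT cDC2. Of 10 tested plasmacytoid dendritic cell markers 3 were higher and 3 lower, with sums of 1684 and 1663 in WT cDC1 and 1599 and 1462 in WT cDC2. Of 8 tested monocyte markers 2 were higher and 2 lower, with sums of 7356 and 7872 in WT cDC1 and 7094 and 7178 in WT cDC2. These close sums hold opposed members. Treml4 was higher in WT cDC1, as given above, and Ms4a6c lower, at 490 and 494 against 2080 and 2054 in WT cDC2. Of 4 tested neutrophil markers 0 were higher and 1 lower, with sums of 353 and 361 in WT cDC1 and 450 and 485 in WT cDC2, and S100a8 stayed at 25.7 to 29.2. No marker read 0 on any array. Without WT cDC1 replicate 1, 6 calls among the B cell and 7 among the macrophage markers held, and those of the NK cell, plasmacytoid, monocyte and neutrophil lists all held. The 5 lower B cell calls became 3 without WT cDC2 replicate 1, the 1 higher and 2 lower NK cell calls became 0 and 1 without WT cDC2 replicate 2, and the 2 higher monocyte calls became 1 without WT cDC1 replicate 2.

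The same contrast was measured in the knockouts on arrays of their own. As a check of the labels, Flt3 measured 2333 and 2265 in WT cDC1 and 1817 and 1742 in WT cDC2, 357 and 370 in Flt3 KO cDC1 and 351 and 371 in Flt3 KO cDC2, and 2426 and 2456 in Flt3L KO cDC1 and 1646 and 1637 in Flt3L KO cDC2, so it was low on the Flt3 KO arrays. Flt3l measured 113 to 149 on the WT arrays, 124 to 138 on the Flt3 KO arrays and 109 to 129 on the Flt3L KO arrays, and the labels do not say whether its probes lie in the deleted part. The WT difference departed from the mean of the Flt3 KO and Flt3L KO differences for 17 genes (0.114% of those tested), and 1915 did so at an unadjusted p under 0.05. This count moved with the WT arrays left out. It was 4 without WT cDC1 replicate 1, 653 without WT cDC1 replicate 2, 0 without WT cDC2 replicate 1, and 5 without WT cDC2 replicate 2. The count of 0 stood beside 1514 genes at an unadjusted limma p under 0.05.

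C1qa, C1qb, Clec4e and Ms4a7 had a smaller difference in WT than in the knockouts. C1qa, a chain of complement C1q, measured 84 and 78.8 in WT cDC1 and 135 and 157 in WT cDC2, with 69.4 and 69.7 in Flt3 KO cDC1 and 363 and 280 in Flt3 KO cDC2, and 82.4 and 88 in Flt3L KO cDC1 and 790 and 569 in Flt3L KO cDC2. The cDC2 arrays of the knockouts were thus the high ones. In C1qb, another chain of the same complex, Clec4e, the mycobacterial glycolipid receptor Mincle, and Ms4a7, the knockout cDC2 arrays also lay above WT cDC2.

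Other genes had a larger difference in WT. Lyz2 measured 1211 and 1288 in WT cDC1 and 716 and 735 in WT cDC2, while in Flt3L KO it was 1046 and 938 in cDC1 and 1178 and 1259 in cDC2, so the sign of its WT difference was not shared there. Cd209a, a lectin of monocyte-derived and cDC2 cells, measured 124 and 113 in WT cDC1 and 1587 and 1491 in WT cDC2, with 225 and 223 in Flt3 KO cDC1 and 1562 and 1517 in Flt3 KO cDC2, and 164 and 115 in Flt3L KO cDC1 and 759 and 799 in Flt3L KO cDC2. Stat4 had log2 differences of -2.92 in WT, -2.21 in Flt3 KO and -2.07 in Flt3L KO. Cd36 had log2 differences of 4.32 in WT, 4.12 in Flt3 KO and 2.51 in Flt3L KO, where its cDC2 level was 143 and 124, against 51.1 and 57.7 in WT cDC2. Irf8 had log2 differences of 3.38 in WT, 2.87 in Flt3 KO and 2.96 in Flt3L KO, and Zeb2 of -3.65 in WT, -3.72 in Flt3 KO and -3.46 in Flt3L KO, and neither was called in this test.

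**Figure D5:**
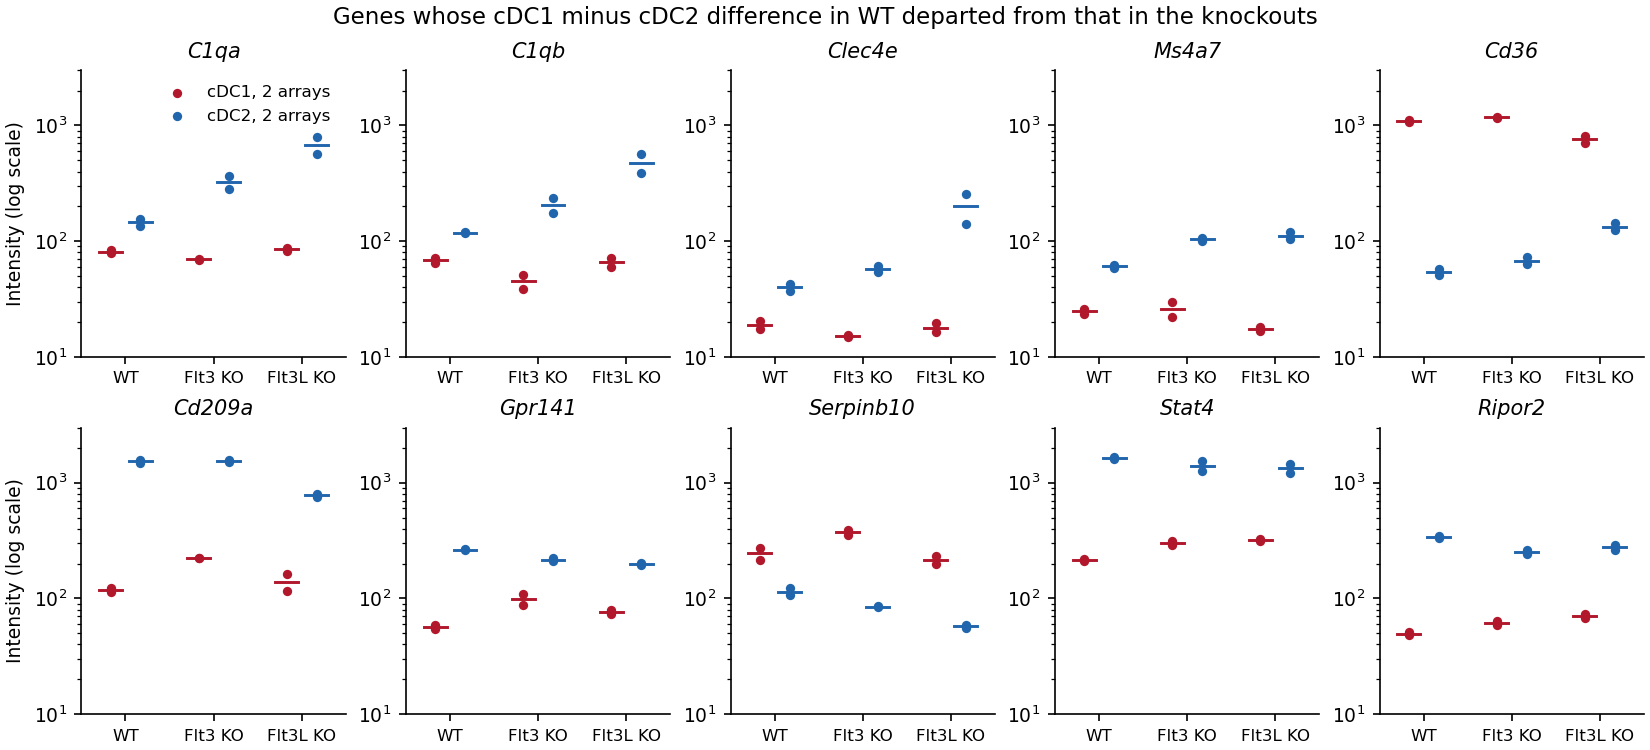
Intensity on each array (points) and the group mean (line) of 10 of the 17 genes whose WT difference was called as departing from that in the knockouts, with cDC1 (red) left of cDC2 (blue) in WT, Flt3 KO and Flt3L KO, on a log scale. C1qa, C1qb and Clec4e have their highest arrays in Flt3L KO cDC2, whereas Cd209a in Flt3L KO cDC2 lies below its WT cDC2 level.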

How the data were processed

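The deposited values were linear intensities of 30177 probe sets on 12 arrays, made by the authors with summarisation and normalization that are not given in the sources used here. Per the labels' protocols, total RNA was amplified and biotin-labelled for GeneChip gene arrays. Log2 was taken here. Probe sets with exactly 1 gene symbol in the platform annotation (21789) were kept, and 1621 with several and 6767 unnamed ones were set aside. A gene took its probe set with the highest mean (19938 genes). The dimmest 25% of genes, under a mean log2 of 4.78, were not tested, Flt3 and Flt3l excepted, which left 14953.

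limma 3.58.1 in R 4.3.3 fitted 1 mean for each of 6 groups over the 12 arrays, with 6 residual degrees of freedom and a median SE of 0.0937 for the WT difference. Adjusted p-values are Benjamini-Hochberg over all tested genes, with a threshold of 0.05. The number of arrays limits the precision. The labels do not say that a replicate number marks a shared animal, litter or day, so the numbers were not taken as pairs. Same-numbered arrays deviated together with r of 0.159 (WT), 0.088 (Flt3 KO) and 0.146 (Flt3L KO), which does not decide whether they were paired. Alternatives were the normalization, the filter, the variance prior, the probe set rule, the arrays fitted, a replicate block and leaving out each WT array. The fit was tested on simulated data.

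The members and lists were chosen with earlier results of these data known. Any member of 41 lists could be named, with, beyond them, the 20 largest called differences in each direction, the 10 brightest over 2-fold in each direction and, against the knockouts, the 5 largest in each direction. Clone-named and predicted genes, small RNA genes and receptor segments were left out of those. The 20 largest and 10 brightest were also taken only from genes whose WT cDC1 and WT cDC2 arrays did not overlap. Promoters came from RefSeq (GRCm38.p6), searched on either strand from 250 bases before to 50 after each start.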

Additional observations from a re-analysis of the deposited data

Results flagged for a closer look

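For 13 named genes the WT difference between cDC1 and cDC2 departed from the mean of the differences in Flt3 KO and Flt3L KO, by a test of that difference in limma (adjusted p under 0.05). Each value below is that log2 difference in WT minus its mean in the knockouts.

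Genes for which it was positive were C1qa at 1.75 ± 0.18 (SE, adjusted p = 0.0052) and C1qb at 1.71 ± 0.22 (adjusted p = 0.0152), chains of complement C1q. Clec4e, the receptor Mincle, stood at 1.59 and Ms4a7 at 1.05, and in both the cDC2 arrays of the knockouts were above those of WT. Cd36 stood at 1.01, Lyz2 at 0.96 and Nr1h3, the oxysterol-sensing nuclear receptor LXR alpha, at 0.87. Nr1h3 measured 59.5 and 59 in WT cDC1 against 113 and 103 in WT cDC2. Vcam1, an adhesion molecule, stood at 0.62 and measured 165 and 157 in WT cDC1 against 84.5 and 90.9 in WT cDC2.

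Genes for which it was negative were Cd209a at -1.06, Gpr141 at -0.95, Serpinb10 at -0.93, Stat4 at -0.79 and Ripor2 at -0.78. Of these, Serpinb10, a clade B serpin, was higher in WT cDC1 (217 and 273) than in WT cDC2 (122 and 107), and its difference was larger in the knockouts. The other calls, named here after their values were seen because they fall outside the naming rule, were Adamts6, Lpp, Pla2g2d and Rgs12. C1qa and C1qb are also on the list of macrophage markers, and the part of other cells in this was not tested. How these calls depend on single arrays is given with the processing.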

How the results depend on the processing

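The 5896 calls between WT cDC1 and WT cDC2 numbered 5921 after quantile normalization, 5723 with no filter, 5439 with the dimmer genes left out up to the median, 5991 with a trended robust prior, 5899 with probe sets averaged and 4600 when only the WT arrays were fitted. The 969 calls over 2-fold numbered 887 to 982 under these settings. With the replicate number as a block the calls numbered 5679, and with the block within genotype 6096, and the calls over 2-fold were 969 in both. Leaving out 1 WT array gave 4456 to 6520 calls and 971 to 1004 over 2-fold. Among the named genes no value changed sign where it was called, and signs of the other genes were not compared. In the main fit 568 of the named genes tested were called, and only these could lose a call. Of 841 named genes tested, 0 to 42 lost their call under the settings that still tested all of them, and 33 to 72 did so when 1 WT array was left out. With the dimmer genes left out up to the median, 670 of them were tested and 0 of these lost their call, but the lower C-type lectin calls fell to 8, against 19, because fewer genes were tested. The 17 genes whose WT difference departed from the knockouts became 67 with the trended robust prior, 14 to 19 under the other settings on all arrays, the replicate block included, and 0 to 653 when 1 WT array was left out. The 0, without WT cDC2 replicate 1, came from limma with 1514 genes at an unadjusted p under 0.05. A cell type left with 1 array is assumed to vary like the other groups. The cause of these shifts was not tested. Dim genes near the lower quartile of intensity give folds that the background limits.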

Other observations

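Members of a gene family on the same chromosome, taken by symbol and chosen after their values were seen, did not always share a direction. Whether all members of a family lie next to each other was not checked. Of 10 tested Clec4 lectin genes on chromosome 6, 1 was higher in WT cDC1 (Clec4b2), 8 were lower and 1 was not called. Of 8 tested Cd300 receptor genes on chromosome 11, 1 was higher (Cd300c), 5 were lower and 2 were not called. Of 11 tested Ms4a genes on chromosome 19, 2 were higher, 6 lower and 3 not called. Among them Ms4a4c measured 54.5 and 76.6 in WT cDC1 against 883 and 837 in WT cDC2, and Ms4a6b 148 and 152 in WT cDC1 against 833 and 846 in WT cDC2, while Ms4a1, which encodes the B cell marker CD20, ran the other way at 92.1 and 110 in WT cDC1 against 61.2 and 62.8 in WT cDC2.

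The Ifi200 family on chromosome 1, of DNA-sensing interferon-inducible proteins, had 5 tested genes. Ifi205 was higher in WT cDC1 and Ifi203 lower, at 74.1 and 88 in WT cDC1 against 265 and 238 in WT cDC2. Aim2, the DNA sensor of an inflammasome, was lower, at 1193 and 1490 in WT cDC1 against 1757 and 2000 in WT cDC2, and Ifi207 and Ifi209 were not called. The 3 tested clade B serpin genes on chromosome 1 were higher in WT cDC1, and of 6 tested on chromosome 13, 3 were higher and 3 not called. Tmem176a and Tmem176b, adjacent genes on chromosome 6, were both lower, Tmem176b at 335 and 274 in WT cDC1 against 2034 and 1918 in WT cDC2. Close paralogs can share probe signal.

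Of probe sets outside the gene comparison, tested apart from it, 230 of 1621 with several symbols and 785 of 6767 unnamed ones were called. The Y-linked gene Uty measured 131 and 163 in WT cDC1 against 291 and 276 in WT cDC2 (limma adjusted p = 6.27e-05), and Xist, expressed from the inactive X chromosome, read 16 to 18.3 on the 4 WT arrays.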
